A study of Mus musculus with 6 samples.

Results

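The small leucine-rich proteoglycans (SLRPs) of the mouse aorta were compared between wild-type (WT) mice and mice heterozygous for a fibrillin-1 missense allele. The 9 genes Bgn, Dcn, Lum, Fmod, Prelp, Ogn, Omd, Aspn and Podn were taken from a table of 21117 genes by their NCBI gene numbers, and all 9 passed the filter on low values. Poly(A) RNA of untreated aortic tissue was sequenced at 32 weeks of age in 3 WT samples and 3 Fbn1C1041G/+ samples, which differed by the Fbn1 genotype per the labels. Mice with this germ-line allele serve as a model of Marfan syndrome. The sex, the aortic segment, the strain and whether a sample is 1 animal or a pool are not stated in the labels, so the p-values below measure the spread between these samples. Levels are given in FPKM, fragments per kilobase scaled to the number of mapped fragments. This scale allows for transcript length when genes are compared within a library. The values also varied with GC content, to an extent that differed between libraries.

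SLRPs are secreted proteins built from leucine-rich repeats that curve into a solenoid, and many carry chondroitin, dermatan or keratan sulfate chains. They bind collagen fibrils and limit their lateral growth, and several also hold growth factors such as TGF-beta or signal through surface receptors. Fibroblasts of the adventitia and smooth muscle cells of the media make them in the vessel wall, and loss of biglycan in humans causes a syndrome with thoracic aortic aneurysm. Bgn (biglycan, NCBI gene 12111), Dcn (decorin, 13179) and Aspn (asporin, 66695) form class I of the family. Lum (lumican, 17022), Fmod (fibromodulin, 14264), Prelp (116847) and Omd (osteomodulin, 27047) form class II, Ogn (osteoglycin or mimecan, 18295) belongs to class III and Podn (podocan, 242608) to class V.

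Several members lie side by side in the genome. In the RefSeq gene order of the GRCm38.p6 assembly, Ecm2, Aspn, Omd and Ogn are consecutive coding genes on chromosome 13, Dcn and Lum are neighbours on chromosome 10 followed by Kera and Epyc, and Optc, Prelp and Fmod are neighbours on chromosome 1. Bgn lies on the X chromosome and Podn on chromosome 4, with no other SLRP beside them. The 250 bases before the gene start are shown for the chromosome 13 members, since the ratio of Omd to Aspn there had groups that did not overlap, and for Bgn, the most abundant member. They are RefSeq sequences of GRCm38.p6, read 5′ to 3′ on the strand of the gene. Capitals mark TATAAA or GGGCGG, on either strand.
Aspn, chr13:49544193-49544442, plus strand: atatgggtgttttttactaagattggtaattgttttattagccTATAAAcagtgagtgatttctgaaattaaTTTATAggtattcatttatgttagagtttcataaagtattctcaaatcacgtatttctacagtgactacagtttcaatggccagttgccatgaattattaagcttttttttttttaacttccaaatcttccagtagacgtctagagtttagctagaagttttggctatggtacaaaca
Omd, chr13:49582212-49582461, plus strand: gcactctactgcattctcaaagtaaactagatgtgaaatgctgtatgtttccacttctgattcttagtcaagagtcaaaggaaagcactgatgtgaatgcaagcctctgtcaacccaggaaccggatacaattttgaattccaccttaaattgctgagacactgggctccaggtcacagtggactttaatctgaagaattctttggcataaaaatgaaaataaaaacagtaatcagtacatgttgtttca
Ogn, chr13:49607765-49608014, plus strand: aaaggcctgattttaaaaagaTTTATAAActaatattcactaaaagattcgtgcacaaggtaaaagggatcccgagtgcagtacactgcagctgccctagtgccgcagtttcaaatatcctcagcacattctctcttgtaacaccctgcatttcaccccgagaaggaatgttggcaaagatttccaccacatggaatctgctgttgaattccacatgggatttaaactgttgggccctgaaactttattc
Bgn, chrX:73483351-73483600, plus strand: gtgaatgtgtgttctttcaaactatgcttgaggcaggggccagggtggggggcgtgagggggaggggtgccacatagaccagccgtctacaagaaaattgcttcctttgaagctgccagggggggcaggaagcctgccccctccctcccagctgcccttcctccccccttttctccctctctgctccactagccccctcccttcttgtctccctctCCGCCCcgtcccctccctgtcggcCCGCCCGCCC
The 3 chromosome 13 windows were AT-rich, with a GC content of 30.0% for Aspn, 38.4% for Omd and 42.0% for Ogn, while that of Bgn was 64.4% and the median over all windows in the table was 52.4%. TATAAA was found in Aspn and Ogn, where the matches on the plus and minus strands overlap in Ogn, and 12.4% of 32851 windows of the same length held it. GGGCGG was found in Bgn, at 34, 10 and 6 bases before the start with the last 2 matches overlapping, and in 1 of the 2 windows of Podn; 32.7% of all windows held it. The AP-1 motif TGANTCA was in none of the 7 members with a window, against 6.75% of all windows. None of the 3 motifs was found in the Omd window shown, which says only that these letters are not in it.

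The depth of the libraries, estimated from the steps between low FPKM values, was 14050000 to 17200000 fragments. At that depth the levels of Omd, the lowest member, rested on an estimated 305 to 613 fragments per library, and those of Bgn on 66673 to 110105. In the comparison of all genes by limma on log2(FPKM + 1), 752 of 13438 tested genes were called at a Benjamini-Hochberg adjusted p under 0.05, of which 100 were higher and 652 lower in Fbn1C1041G/+ samples. Markers of smooth muscle were present throughout, with a summed level of 9159 to 10729 FPKM across WT libraries and 9877 to 12055 FPKM across mutant ones. Other tissues differed between the groups: 5 of 5 sympathoadrenal markers were called lower (summed level 1201 to 1368 FPKM across WT and 118 to 232 FPKM across mutant libraries), and 3 of 6 cardiomyocyte markers higher (42.0 to 66.1 and 138 to 543 FPKM). The 6 macrophage markers summed to 90.4 to 152 FPKM across WT and 139 to 388 FPKM across mutant libraries, with none called. All 6 had a log2 fold change above 0, with a median of 0.88, and 3 had an unadjusted p under 0.05 in the limma test. The 4 T cell markers had a summed level of 1.36 to 3.28 FPKM across WT and 4.27 to 20.0 FPKM across mutant libraries, and all 4 had an unadjusted p under 0.05 with none called. None of the endothelial, adipocyte or tested chondrocyte markers was called, and adipocyte markers had a summed level of 2168 to 7543 FPKM across WT and 3175 to 6132 FPKM across mutant libraries. The highest adipocyte sum was that of WT replicate 3, with WT replicates 1 and 2 at 2168 and 2634.5 FPKM. WT replicate 3 also stood apart in its dependence on GC content, which is described with the members it touches. The part of these differences in the results below was not tested.

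The levels of the 9 genes spread from Omd to Bgn in an order that was nearly the same in the 6 libraries. Together the 9 genes reached 4059 ± 425 FPKM in WT libraries and 4330.5 ± 113 FPKM in the mutants (SD, n = 3 each), or 0.863% and 0.911% of the summed FPKM of all genes. Bgn was highest, with a mean of 2426.5 FPKM over the 6 libraries, followed by Dcn at 1010.1 FPKM. Ogn, Prelp and Lum came next at 323 FPKM, 196 FPKM and 106 FPKM. Fmod, Aspn, Podn and Omd had means of 53.1, 33.99, 32.7 and 12.9 FPKM. Each of the first 5 genes exceeded the next one in the order in 6 of 6 libraries, and so did Podn over Omd, though across libraries the ranges of Ogn and Prelp, and of Prelp and Lum, overlapped. Fmod exceeded Aspn in 5 of 6 libraries, all but WT replicate 3, and Aspn exceeded Podn in 4 of 6, so the order of these genes varied between libraries. Levels of different genes were not compared by a test.

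**Figure D1:**
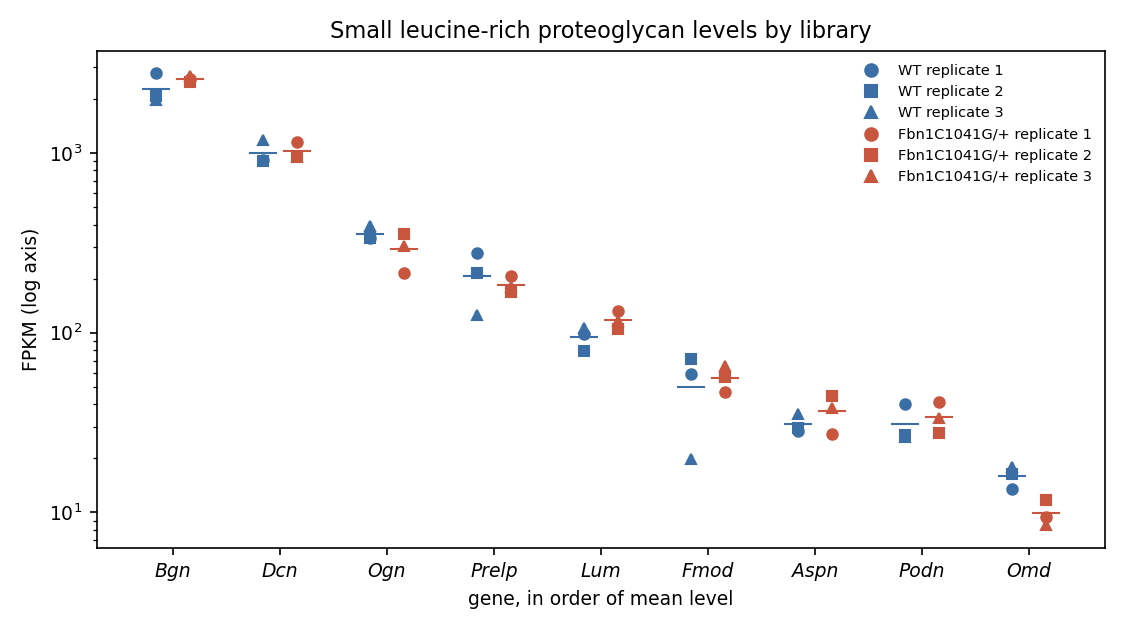
FPKM of the 9 genes on a log axis, with 1 point per library (blue WT, red Fbn1C1041G/+, shape for the replicate number) and a short line at each group mean (n = 3). Genes are ordered by mean level from Bgn to Omd; the groups overlap for every gene but Omd, and WT replicate 3 lies lowest for Fmod and Prelp.

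None of the 9 SLRP genes was called between the genotypes, against a background of 5.60% of all tested genes called in either direction, 0.744% higher and 4.85% lower. Omd came nearest, with an adjusted p of 0.0949 in the limma test, and was the 1 member with an unadjusted p under 0.05, which 15.2% of all tested genes had. The groups did not overlap for Omd alone, where 20.0% of tested genes had groups that did not overlap and 13.1% had every mutant library below every WT library. The log2 fold change was above 0 in 6 members and below 0 in 3. Its median was 0.13, against -0.0036 over all tested genes. The direction of this median turned with quantile normalization (-0.0050) and without mutant replicate 1 (-0.0051), and it was 0.03 without WT replicate 3 and 0.05 without WT replicate 2. The number of members called was 0 under each of the 17 alternatives run. A p that misses the threshold does not show that levels were alike, so the 95% interval of each fold change is given, on the scale of FPKM + 1.

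Class I held the 2 most abundant transcripts. Bgn, whose protein binds collagen and signals through Toll-like receptors, stood at 2775, 2086 and 1962 FPKM in WT replicates 1 to 3 and at 2569, 2471 and 2696 FPKM in the Fbn1C1041G/+ replicates. The mutant values lay within the range of WT, whose replicate 1 was the highest library, with means of 2274 ± 438 and 2578.5 ± 113 FPKM (SD, n = 3 each). Its log2 fold change was 0.20 ± 0.18 (SE, with a limma adjusted p = 0.762), with an interval of 0.854-fold to 1.54-fold, and its sign turned with quantile normalization (-0.0050). Dcn, which binds fibrillar collagen and TGF-beta, measured 916, 903 and 1179 FPKM in the WT libraries and 1147, 963 and 953 FPKM in the mutants. The groups overlapped almost wholly, with means of 999 ± 156 and 1021 ± 109 FPKM (SD, n = 3 each), and the log2 fold change of 0.04 ± 0.17 (SE, with a limma adjusted p = 0.971 and an interval of 0.773-fold to 1.36-fold) turned sign with quantile normalization and without WT replicate 1, WT replicate 2 or mutant replicate 1. Aspn, an aspartate-rich relative of decorin that also binds collagen and TGF-beta, measured 28.6, 29.7 and 35.3 FPKM in the WT libraries and 27.5, 44.6 and 38.3 FPKM in the mutants. Mutant replicates 2 and 3 were above all WT libraries and mutant replicate 1 was the lowest of the 6 (log2 fold change 0.21 ± 0.20, SE; limma adjusted p = 0.776; interval 0.832-fold to 1.61-fold).

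Among the class II genes, Omd alone had groups that did not overlap. Omd encodes a keratan sulfate proteoglycan best known from bone. It measured 13.6, 16.3 and 17.9 FPKM in the WT libraries and 9.46, 11.7 and 8.49 FPKM in the mutants. Every mutant library lay below every WT library, with means of 15.9 ± 2.17 and 9.89 ± 1.65 FPKM (SD, n = 3 each). The log2 fold change was -0.64 ± 0.17 (SE), its unadjusted p was 0.00684, and the adjusted p of 0.0949 over the 13438 genes did not pass the threshold in the limma test. The interval, not adjusted for the number of genes, was 0.487-fold to 0.848-fold. The adjusted p ran from 0.0543 to 0.321 over the alternatives. In bulk tissue, fewer cells of a type and less RNA per cell cannot be told apart, which holds for every level given here.

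Lum, which spaces collagen fibrils, had the next smallest p. It measured 98.8, 78.7 and 105.8 FPKM in the WT libraries and 132.8, 105.1 and 116 FPKM in the mutants. The groups overlapped through WT replicate 3 and mutant replicate 2 alone, and the log2 fold change was 0.32 ± 0.17 (SE, with a limma adjusted p = 0.477; interval 0.948-fold to 1.65-fold). Fmod, which binds the same region of collagen as lumican, measured 58.6, 71.8 and 19.9 FPKM in the WT libraries and 46.8, 56.6 and 65.1 FPKM in the mutants. WT replicate 3 was far below the other 5 libraries, and the log2 fold change of 0.33 ± 0.45 (SE, with a limma adjusted p = 0.859) had the widest interval of the 9, 0.609-fold to 2.61-fold. Without that library it was -0.22. Prelp, a basic member that binds collagen and heparan sulfate, measured 278, 215 and 125 FPKM in the WT libraries and 208, 168 and 180.4 FPKM in the mutants. WT replicate 3 was again the lowest, and the log2 fold change was -0.08 ± 0.29 (SE, with a limma adjusted p = 0.955; interval 0.589-fold to 1.52-fold), or -0.40 without that library and 0.17 without WT replicate 1.

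Ogn, the class III member, which regulates collagen fibril thickness, measured 338, 338 and 393 FPKM in the WT libraries and 215, 352 and 305 FPKM in the mutants. Mutant replicate 1 was the lowest library, while mutant replicate 2 lay within the WT range (log2 fold change -0.32 ± 0.21, SE; limma adjusted p = 0.625; interval 0.571-fold to 1.13-fold). Podn, podocan, a collagen-binding member of class V, measured 40.03, 27.1 and 26.4 FPKM in the WT libraries and 41.1, 27.6 and 33.7 FPKM in the mutants. The groups overlapped, with replicate 1 the highest in both (log2 fold change 0.13 ± 0.22, SE; limma adjusted p = 0.887; interval 0.767-fold to 1.57-fold), and the sign turned without mutant replicate 1 (-0.0051).

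**Figure D2:**
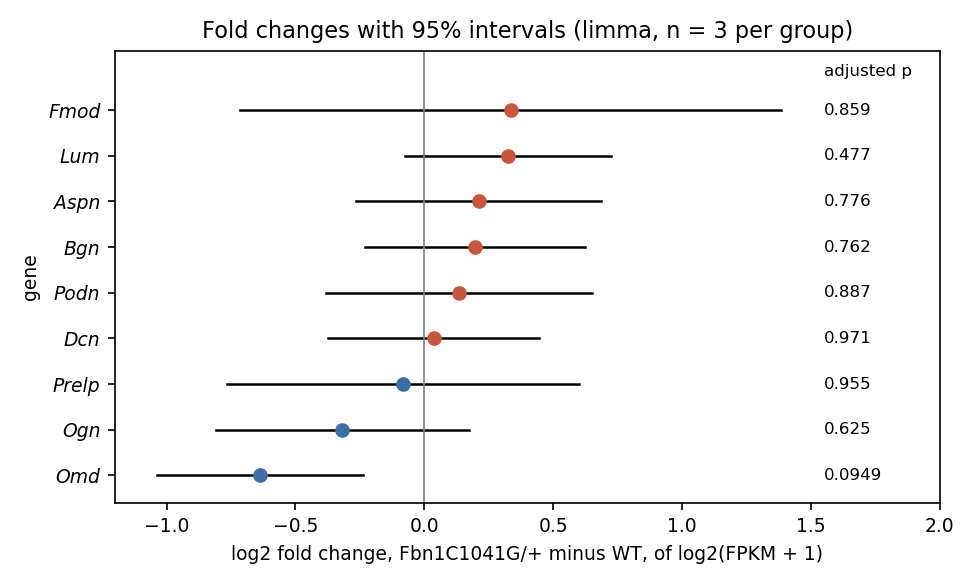
Log2 fold change (Fbn1C1041G/+ minus WT) of log2(FPKM + 1) for each gene, with its 95% interval from limma (line) and the adjusted p at the right; red points are above 0 and blue points below. The interval of Omd, not adjusted for the number of genes, lies below 0, those of the other 8 genes span 0, and that of Fmod is the widest.

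The neighbours Ecm2, Aspn, Omd and Ogn on chromosome 13 did not share 1 pattern over the libraries. Ecm2, a related leucine-rich matrix protein gene outside the 9, measured 63.4, 46.4 and 67.4 FPKM in the WT libraries and 41.6, 51.96 and 49.5 FPKM in the mutants. Mutant replicate 1 was the lowest of the 6 libraries for Ecm2, Aspn and Ogn, and mutant replicate 3 was the lowest for Omd. In mutant replicates 2 and 3 Aspn was above its WT mean by a factor of 1.43 and 1.23, while Omd was at 0.736 and 0.534 of its own. The ratio of Omd to Aspn within a library was 0.475, 0.548 and 0.506 in WT and 0.344, 0.263 and 0.222 in mutant samples. The groups of this ratio did not overlap. The ratio of Omd to Ecm2 was 0.277 ± 0.0691 in WT and 0.208 ± 0.0316 in mutant samples, and that of Omd to Ogn was 0.0446 ± 0.00406 and 0.0350 ± 0.00824 (SD, n = 3 each), with groups that overlapped in both. These ratios were chosen after the values were seen and are a description with no test.

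**Figure D3:**
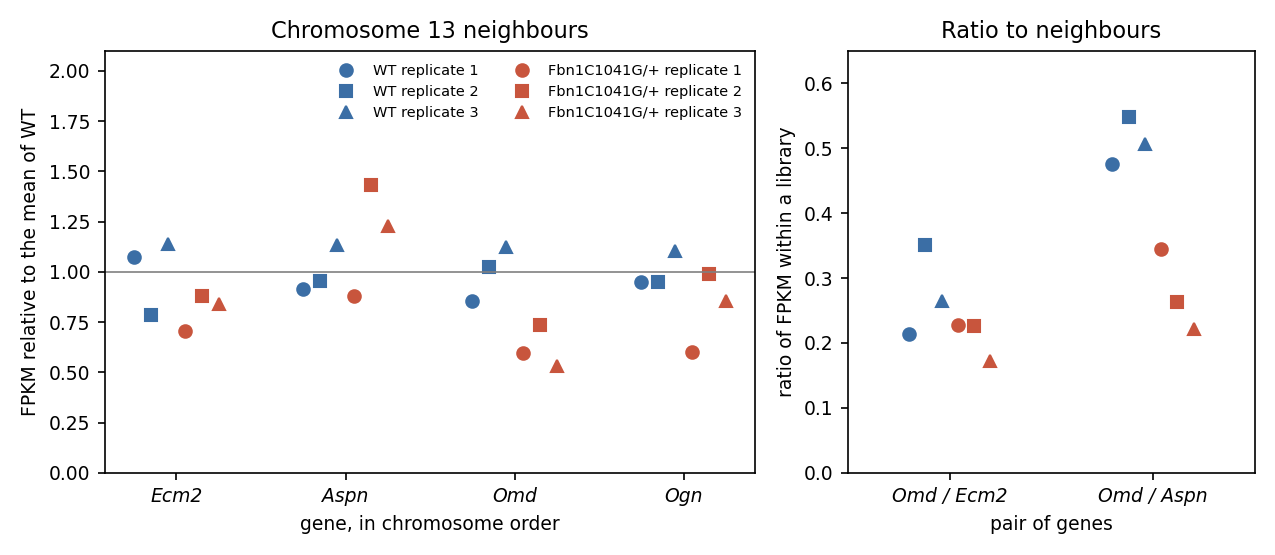
Left, FPKM of the 4 chromosome 13 neighbours divided by the mean of WT (line at 1), per library; right, ratio of the FPKM of Omd to that of Ecm2 and of Aspn within each library (blue WT, red Fbn1C1041G/+, shape for the replicate number). The mutant points of Omd lie below all WT points, those of Aspn spread to both sides, and the Omd to Aspn ratio is 0.222 to 0.344 in mutant and 0.475 to 0.548 in WT libraries.

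The spread of the WT values split the 9 genes by the base composition of their transcripts. Across 13306 genes, the deviation of a library from the gene mean was set against transcript GC content. The correlation was -0.311 in WT replicate 3, against 0.193 and 0.238 in WT replicates 1 and 2 and -0.136 to 0.2 in the mutant libraries. Genes are not independent replicates. The deviations of a gene cancel out over the 6 libraries, so the correlations also depend on each other. The 5 AT-rich members, Aspn, Omd, Ogn, Lum and Dcn, had a GC content of 34.3% to 42.6% and were higher in WT replicate 3 than in the mean of WT replicates 1 and 2, by 0.22 to 0.37 on the log2(FPKM + 1) scale. The other 4 members, Bgn, Fmod, Prelp and Podn, had a GC content of 52.5% to 57.2%, against a median of 50.8% over tested genes, and were lower in that library. The difference was -1.66 for Fmod, -0.97 for Prelp, -0.31 for Podn and -0.29 for Bgn, an order other than that of their GC content. After a curve on GC content was removed from each library, the log2 fold change was 0.38 for Fmod, -0.03 for Prelp and -0.61 for Omd, and the limma adjusted p of Omd was 0.0612. Without WT replicate 3 and with no such curve removed, Omd was at -0.55 with a limma adjusted p of 0.16. Whether GC content caused the difference of WT replicate 3 was not tested.

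**Figure D4:**
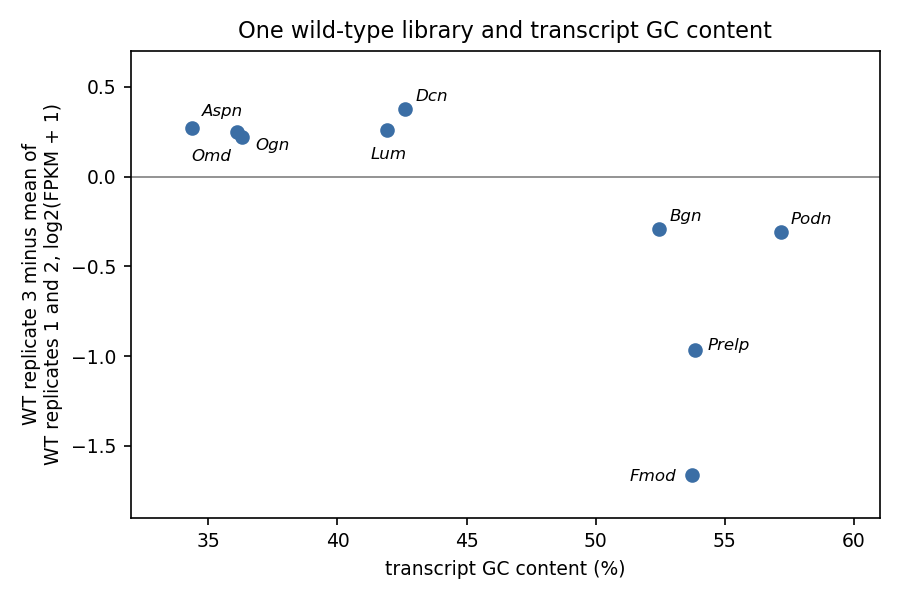
Transcript GC content in percent against the difference in log2(FPKM + 1) between WT replicate 3 and the mean of WT replicates 1 and 2, with 1 point per gene (n = 9 genes, 1 library). The 5 genes at 34.3% to 42.6% GC lie above 0 and the 4 genes at 52.5% to 57.2% GC lie below, with Fmod at -1.66.

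The levels were also set against markers of fibroblasts, a main source of SLRPs. The 10 fibroblast markers summed to 1912 to 2265.5 FPKM across WT libraries and 1748.5 to 2434 FPKM across mutant ones. Gsn made up the largest part of this sum, with means of 1268 FPKM in WT and 1073 FPKM in mutant libraries (log2 fold change -0.26). Of the 10 markers, 0 were called and none had an unadjusted p under 0.05 in the limma test. The log2 fold change was above 0 in 8 of 10, with a median of 0.20. Relative to the mean log2 level of these markers in the same library, Omd was -2.50 ± 0.22 in WT and -3.30 ± 0.37 in mutant samples (SD, n = 3 each), a difference of -0.80. The 2-sided exact permutation test gave p = 0.1, the smallest that 3 against 3 samples allow. Ogn had a difference of -0.48 and Lum of 0.16 on this scale, each with an exact p of 0.2. The value of Ogn rested largely on single libraries, at -0.15 without mutant replicate 1 and -0.73 without mutant replicate 2. Over each library left out, the difference was -1.01 to -0.65 for Omd and 0.09 to 0.22 for Lum. The other 6 genes had differences of -0.24 to 0.17, with exact p-values of 0.5 to 0.9.

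The share of each gene in the summed FPKM of the family was compared between the groups with 2-sided exact permutation tests, whose smallest p is 0.1 with 3 against 3. These shares were not corrected for GC content. Bgn made up 55.7% ± 5.14 of the summed FPKM of the 9 genes in WT and 59.5% ± 1.56 in mutant samples (SD, n = 3 each; exact permutation p = 0.3). Dcn made up 24.9% ± 5.24 and 23.6% ± 2.27, and Ogn 8.86% ± 1.38 and 6.74% ± 1.76. Omd was the member whose shares did not overlap, at 0.298%, 0.432% and 0.463% in WT and 0.215%, 0.279% and 0.193% in mutant samples. Its exact permutation p was 0.1, and those of the other 8 members were 0.2 to 0.9, with 9 such tests made and none adjusted. Over each library left out, the difference in share (mutant minus WT, in percentage points) was 1.32 to 6.45 for Bgn, with the lowest value without WT replicate 3 and the highest without WT replicate 1. It was -2.94 to -1.19 for Ogn and -0.218 to -0.136 for Omd, while that of Dcn turned direction without WT replicate 3.

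Of the 9 other SLRP genes listed, 5 were tested and none was called, either higher or lower, nor had any an unadjusted p under 0.05 in the limma test. Optc, opticin, known from the vitreous of the eye, measured 40.2, 27.7 and 22.02 FPKM in the WT libraries and 25.6, 19.7 and 21.6 FPKM in the mutants, with groups that overlapped (log2 fold change -0.38). It lies beside Prelp, and reads shared between the 2 genes were not tested. Tsku, tsukushi, a secreted inhibitor of BMP signalling, had a log2 fold change of 0.47 and Ecm2 one of -0.29. Chadl, chondroadherin-like, measured 5.82, 6.02 and 0.79 FPKM in the WT libraries and 2.52, 1.85 and 1.58 FPKM in the mutants (log2 fold change -0.58), and without WT replicate 3 it was called lower, at -1.23 with a limma adjusted p of 0.0120. In that fit 751 of 13438 tested genes were called lower. Chad, chondroadherin of cartilage, was 63.0 FPKM in WT replicate 2 and 0.86 to 4.85 FPKM in the other 5 libraries. The other 4 genes were under the filter: Kera, keratocan of the cornea, was listed at 0 to 0.04 FPKM. Epyc, epiphycan of cartilage, ranged from 0.2 to 0.6 FPKM across WT libraries and from 0.97 to 1.30 FPKM across mutant ones, Podnl1 was 0.09 to 0.25 and 0.33 to 0.44 FPKM, and Nyx, nyctalopin of the retina, was 0.18 to 0.23 and 0.05 to 0.11 FPKM. The groups of these 3 genes did not overlap, with Epyc and Podnl1 higher and Nyx lower in the mutants, on an estimated 3 to 34 fragments per library. Groups did not overlap in 20.0% of tested genes, and this share was not computed for genes under the filter. In the fit with no filter on low values, none of the other SLRPs listed was called.

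No gene of the lists that build, cut or receive SLRPs was called. Over all tested genes, 5.60% were called and 15.2% had an unadjusted p under 0.05, which are the shares to set beside the counts of these short lists. In the synthesis of chondroitin and dermatan sulfate chains, 0 of 20 tested genes were called and 2 had an unadjusted p under 0.05, both higher, with a list median log2 fold change of 0.04. Dse, the epimerase that turns chondroitin into dermatan sulfate, measured 6.65, 6.07 and 6.53 FPKM in the WT libraries and 8.27, 8.96 and 11.3 FPKM in the mutants (log2 fold change 0.49; limma adjusted p = 0.147). Every mutant library was above every WT library, as held for 6.85% of tested genes. Csgalnact1, which starts chondroitin chains, had a log2 fold change of 0.46 and B3gat3, of the linker region, one of -0.41, while Xylt1, which adds the first sugar, was 0.17 to 1.37 FPKM and not tested. Of 5 tested keratan sulfate genes none was called and 1 had an unadjusted p under 0.05: B3gnt2, which extends the chain, at 24.9, 25.4 and 28.98 FPKM in WT libraries and 13.6, 21.7 and 20.03 FPKM in the mutants (log2 fold change -0.52; limma adjusted p = 0.248). The keratan sulfotransferase gene Chst1 had a log2 fold change of -0.27 and the galactosyltransferase gene B4galt1 one of 0.12, with a list median of -0.01.

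Of 10 tested genes of processing and cleavage, none was called and 1 had an unadjusted p under 0.05, with a list median of 0.22. Mmp3, stromelysin-1, a protease that cuts proteoglycans, measured 49.5, 45.9 and 53.1 FPKM in the WT libraries and 87.9, 72.2 and 62.5 FPKM in the mutants. Every mutant library was above every WT library (log2 fold change 0.56; limma adjusted p = 0.128). Bmp1, which cleaves the propeptide of biglycan, had a log2 fold change of 0.22, Mmp14 one of 0.41 and Adamts5 one of 0.31. Mmp3, Mmp14 and Adamts5 were the 3 genes of the 10 whose mutant libraries all exceeded the WT libraries, as held for 6.85% of tested genes. This was not particular to the list. The same held for 4 tested growth factors and receptors, and for 1 gene each of chondroitin and dermatan synthesis, the collagens and the cell surface receptors. In the lists of chondroitin and dermatan and of keratan synthesis, 1 gene each had all mutant libraries below the WT libraries. Of 10 tested collagen genes whose products SLRPs bind, none was called and 1 had an unadjusted p under 0.05, Col14a1 (log2 fold change 0.64), with a list median of 0.37, or 0.19 without WT replicate 3. Col5a2 and Col12a1 had log2 fold changes of 0.43 and 0.37. Col1a1, a chain of collagen I, measured 315, 230.4 and 46.3 FPKM in the WT libraries and 240.1, 145 and 245 FPKM in the mutants. The log2 fold change, 0.44 ± 0.67 (SE, with a limma adjusted p = 0.878), turned to -0.40 without WT replicate 3, which was far below the other libraries.

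Of 15 tested growth factors and receptors that SLRPs bind or affect, none was called and 1 had an unadjusted p under 0.05, Ccn4 (log2 fold change 0.46). The list median was 0.38, or 0.23 without WT replicate 3. Tgfbr1, Tgfbr2, Ccn4 and Pdgfb were the 4 genes of the 15 whose mutant libraries all exceeded the WT libraries, as held for 6.85% of tested genes. Tgfb1, the ligand that decorin binds, measured 39.6, 32.9 and 4.85 FPKM in the WT libraries and 41.8, 24.5 and 29.3 FPKM in the mutants, with WT replicate 3 far below the other libraries (log2 fold change 0.68, or -0.21 without that library; limma adjusted p = 0.793 with all). Tgfbr2, a TGF-beta receptor, and Pdgfb, a growth factor, had log2 fold changes of 0.38 and 0.45 (0.23 for Pdgfb without WT replicate 3). None of 11 tested cell surface receptors was called, none had an unadjusted p under 0.05, and the median was 0.27 (0.16 without WT replicate 2), with the biglycan receptor genes Tlr2 and Tlr4 at 0.27 and 0.29 and Igf1r and Lrp1 at 0.28 and 0.42 (0.20 for Lrp1 without WT replicate 3).

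**Figure D5:**
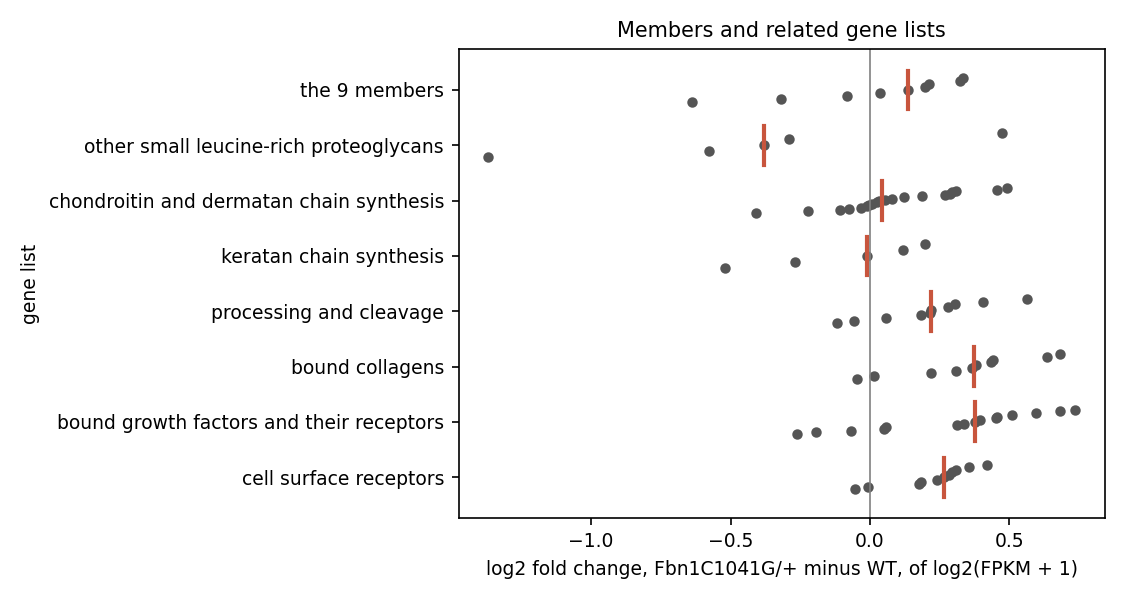
Log2 fold change (Fbn1C1041G/+ minus WT) of log2(FPKM + 1) for each tested gene of the 9 members and of 7 related lists, with 1 point per gene and a red line at the list median; points are spread vertically for legibility. None of the plotted genes was called, and the list medians lie between -0.38 and 0.38.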

How the data were processed

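Per the file headers, the values the authors deposited are FPKM for each gene in each sample, with 2 decimals. The submitters' processing notes list mouse build mm9. An aligner or quantifier was not named in the sources used; no counts were used. Columns were mapped by name, with 0 columns of sample values left unmapped. Symbols and gene order came from RefSeq GRCm38.p6 (21059 of 21117 genes matched), a build other than that of the authors, and transcript GC content from GENCODE M21, for 99.02% of tested genes.

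Genes whose 6-sample mean reached 1 FPKM were tested on log2(FPKM + 1), which understates the change of low genes, with limma 3.58.1 in R 4.3.3 (lmFit, eBayes with a trend, 2-sided, Benjamini-Hochberg over 13438 genes, threshold 0.05). Fold changes are Fbn1C1041G/+ minus WT. Levels relative to fibroblast markers and shares of the family were compared with exact permutation tests (scipy 1.17.1). The limma test was checked on simulated data with known fold changes and independent noise, where it recovered nearly all large changes and missed most of the smallest. The simulated libraries held no dependence on GC content and no differences in tissue content, so the check does not cover these. Depth was estimated from genes with 1 transcript, where 77.3% to 81.8% of low values lay within 0.2 of a whole fragment at the best step; chance gives 40% for a step fixed beforehand, and more for a step chosen as best.

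The members and lists were chosen with earlier results of these data known. The text names all members, all other listed SLRPs, the first gene of each other list with its 3 smallest p-values, and the 6 genes with the profile nearest to that of the family.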

Additional observations from a re-analysis of the deposited data

How the results depend on the processing

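No member was called under any of the 17 alternatives, which were pseudocounts of 0.1 and 0.01, no filter or one at 5 FPKM, quantile normalization, median-ratio scaling, eBayes without a trend or robust, sample weights, the replicate block, each library left out, and, added after the data were seen, a GC correction. With quantile normalization the log2 fold changes of Bgn and Dcn were -0.0050 and -0.023 and the median of the members was -0.0050; the cause was not tested. With sample weights Fmod was at -0.043, and the calls were 2 higher (Dse, Csgalnact1) and 1 lower (B3gat3) in chondroitin and dermatan synthesis, 1 higher in processing (Mmp3) and 1 higher among the collagens (Col14a1). Calls rose over all 13438 tested genes under this setting, to 285 higher and 1011 lower, against 100 and 652 in the main fit. Over single libraries left out, the log2 fold change ran from -0.050 to 0.16 for Dcn, -0.22 to 0.68 for Fmod, -0.40 to 0.17 for Prelp and -0.0051 to 0.32 for Podn, the median of the members from -0.0051 to 0.17, and the count of other SLRPs called lower from 0 to 1 (Chadl). Lum, Ogn, Omd and Aspn kept their direction in all 17, though over single libraries left out Aspn ran from 0.06 to 0.40 and Ogn from -0.47 to -0.12. With the replicate block Omd was at -0.64 (limma adjusted p = 0.123) and 112 genes were called higher and 586 lower. Deviations of same-numbered libraries had correlations of 0.255, -0.0242 and 0.0969, and those of differently numbered libraries ran from -0.188 to 0.0969. Whether libraries of the same number were paired cannot be told from these values, and the main fit took none as pairs. Omd, the lowest member, rested on an estimated 305 fragments or more per library, and no interval was computed from these estimates.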

Other observations

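Chad, a cartilage member of the wider family, was high in WT replicate 2 together with some other cartilage genes. Chad stood at 3.19, 63.0 and 1.36 FPKM in WT replicates 1 to 3. Col2a1, the main collagen of cartilage, stood at 0.23, 3.67 and 0.01 FPKM and Matn1, the cartilage matrix protein matrilin-1, at 0, 1.52 and 0 FPKM in the same libraries. In the mutant libraries Chad was 0.86 to 4.85 FPKM, Col2a1 0.15 to 0.65 FPKM and Matn1 0 to 0.06 FPKM, so WT replicate 2 was the highest of the 6 for all 3 genes. It was also highest for Col9a1 (0.32 FPKM) and for Sox9 (2.03 FPKM, with WT replicate 1 at 1.69 FPKM). Comp, Acan and the cartilage SLRP gene Epyc were not highest there among the 6 libraries. Epyc was 0.34 FPKM in WT replicate 2 and 0.97 to 1.30 FPKM across mutant libraries.

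The median profile of the 9 SLRP genes over the libraries was nearly flat, with deviations of -0.15 to 0.11 in log2(FPKM + 1) from the mean of each gene. Among the members, Bgn and Dcn lay nearest to it, with root mean square differences of 0.139 and 0.154, and Fmod farthest, at 0.619. The root mean square of the profile itself was 0.0907, below the difference of every member. A gene with no change at all would thus lie nearer to it than any member. The 6 other genes nearest to this profile, by the same measure over 6 samples, were Ppp1cc, Fam32a, Meis2, Nom1, Dpy19l1 and Vamp3, at 0.0421 to 0.0445. They were nearly flat too, with deviations of their own of 0.0630 to 0.104 by root mean square.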
